A study of Mus musculus with 2 samples.

Results

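The miR-125, miR-99 and miR-100, and miR-10 families are here 7 mature microRNAs (miRNAs) of the mouse. By their miRBase accessions they are miR-125a-5p (MIMAT0000135) and miR-125b-5p (MIMAT0000136), miR-99a-5p (MIMAT0000131), miR-99b-5p (MIMAT0000132) and miR-100-5p (MIMAT0000655), and miR-10a-5p (MIMAT0000648) and miR-10b-5p (MIMAT0000208). The accessions were looked up in the deposited table. Each of the 7 was a feature of its own among 739, and each had an intensity on both arrays. The pairing of accession and name comes from the definition of the set, since the table itself gives accessions alone. The arrays compared NOX1-deficient with wild-type smooth muscle cells of the pulmonary artery, which form the contractile layer of the vessel's wall. NOX1 is a catalytic subunit of the NADPH oxidases, enzymes that make superoxide. Each genotype was represented by 1 sample, prepared from 3 male C57BL/6 mice per the labels, and neither pooling of the mice nor the allele behind the NOX1 deficiency is given in the sources used here. Cells of both genotypes were at passage 3 and were cultured for 24 hours in DMEM/F-12 to which 10% FBS (fetal bovine serum) was added, so all values are from serum-fed cells.

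A miRNA binds messenger RNAs largely through its seed, bases 2 to 8 from the 5′ end, and lowers their translation or stability. The miR-125 family is the vertebrate counterpart of lin-4 of the worm Caenorhabditis elegans, where lin-4 times larval development. miR-99 and miR-100 are known to target the growth kinase mTOR. The genes of miR-10a and miR-10b lie within Hox clusters, the gene arrays that set position along the body axis, and the related miR-10 and miR-100 sequences are among the oldest of animal miRNAs. In vascular smooth muscle, miR-125b has been studied for its targeting of the histone methyltransferase Suv39h1 in diabetic mice. miR-10a has been studied there for its targeting of the histone deacetylase HDAC4 when mouse embryonic stem cells differentiate.

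The mature sequences, from RefSeq on build GRCm38.p6, are given first because they sort the 7 miRNAs into 3 seed families and show how little separates some members. The table held all 7 names. Capitals mark the seed.
miR-125a-5p: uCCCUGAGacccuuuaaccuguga
miR-125b-5p: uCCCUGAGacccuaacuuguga
miR-99a-5p: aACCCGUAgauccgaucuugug
miR-99b-5p: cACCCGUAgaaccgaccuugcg
miR-100-5p: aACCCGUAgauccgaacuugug
miR-10a-5p: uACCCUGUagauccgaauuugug
miR-10b-5p: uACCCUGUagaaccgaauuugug

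The seed ACCCGUA was carried by miR-99a-5p, miR-99b-5p and miR-100-5p and by no other mature miRNA among the 1679 names in the RefSeq table. ACCCUGU was likewise carried by miR-10a-5p and miR-10b-5p alone. CCCUGAG was carried by 5 mature miRNAs, miR-125a-5p and miR-125b-5p and besides them miR-351-5p, miR-6367 and miR-6394, whose features were not analysed here. Counted from the 5′ end, with the base of the first-named miRNA written first, miR-99a-5p and miR-100-5p differ by U16A alone. miR-10a-5p and miR-10b-5p differ by U12A alone. miR-99a-5p and miR-99b-5p differ by A1C, U11A, U16C and U21C. miR-125a-5p and miR-125b-5p share their first 13 bases, and 3 single-base edits turn one into the other. Across families the closest pair was miR-100-5p and miR-10a-5p, also 3 edits apart but with different seeds. Whether the probes on the array tell such near-identical miRNAs apart was not tested.

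Members of different families share genomic clusters. On chromosome 9, Mir100, Mirlet7a-2 and Mir125b-1 lie in this order within 50578 bases, at chr9:41531425-41582002 (GRCm38.p6, plus strand), inside the bounds of the long noncoding RNA gene Mir100hg. On chromosome 16, Mir99a, Mirlet7c-1 and Mir125b-2 lie within 47408 bases at chr16:77598936-77646343, with no annotated gene of the table spanning them. On chromosome 17, Mir99b, Mirlet7e and Mir125a lie within 692 bases at chr17:17830188-17830879, inside the bounds of Spaca6, a gene known for its part in sperm-egg fusion. Mature miR-125b-5p is the same from Mir125b-1 and Mir125b-2, so its feature cannot tell the chromosome 9 locus from the chromosome 16 locus. Mir10a lies inside the bounds of Hoxb3 at chr11:96317165-96317274, and Mir10b inside the bounds of both Hoxd3 and Hoxd4 at chr2:74726070-74726137. The table of genes gives bounds only, so exon or intron was not determined.

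The arrays carried 525 listed intensities for NOX1-deficient cells and 546 for wild-type cells, between 0.93 and 51059 arbitrary units and between 0.96 and 51870 units. For the 472 features listed on both arrays, the log2 intensity in wild-type cells was subtracted from that in NOX1-deficient cells, with the values as deposited, and this log2 difference is the measure used below. These were divided by mean log2 intensity into 4 groups of 118 features. The SD of the difference across features was 0.18 in the brightest group and 0.29 in the next. With 1 array per genotype there is no replicate, no value below has an error, and no test of the genotypes was possible. The number of arrays limits the precision, and no miRNA can be called changed or unchanged. Probes differ in affinity, so intensities are compared between the arrays and not between miRNAs. A bulk intensity also cannot separate a difference per cell from a difference in which cells the culture held, and markers of other cell types were not analysed here.

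The miRNA that stood out was miR-100-5p. It read 131 units in NOX1-deficient cells and 88.6 units in wild-type cells, a ratio of 1.48 (log2 difference 0.56). No other feature of the brightest 118 had a difference of this size in either direction. The next largest increases in that group had log2 differences of 0.43 and 0.39, and the largest decrease was -0.45. The feature at 0.43 read 129 units in NOX1-deficient cells and 95.9 units in wild-type cells. Over all 472 features, where dim ones scatter more, 20 other features had a larger increase, which put miR-100-5p in place 21.

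miR-99a-5p, which has the same seed and all but 1 base of miR-100-5p, read 111 units in NOX1-deficient cells and 106 units in wild-type cells. Its log2 difference was 0.07, a ratio of 1.05, and 78 of the 118 brightest features had differences of larger size. The difference of miR-100-5p therefore exceeded that of miR-99a-5p by 0.50 on the log2 scale. Such a gap between 2 features does not depend on a constant scaling of either array. It can depend on other processing: quantile normalization gave 0.38 and log2(intensity + 50) gave 0.34, while a loess curve on brightness gave 0.50. miR-99b-5p, the third member with this seed, read 62.2 units in NOX1-deficient cells and 66.9 units in wild-type cells (log2 difference -0.10, ratio 0.931). The seed family thus spanned 0.67 on the log2 scale, of which 0.17 lay between miR-99a-5p and miR-99b-5p.

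The hairpins of the nearly identical pair are shown because the features differed while the mature RNAs are nearly the same, and the precursors are encoded on separate chromosomes. Capitals mark the mature 5p arm, and sequence and position are from RefSeq. Mir100, chr9:41531425-41531504 on the plus strand, holds its 5p arm at bases 13 to 34 of 80, and Mir99a, chr16:77598936-77599000 on the plus strand, at bases 5 to 26 of 65.
Mir100: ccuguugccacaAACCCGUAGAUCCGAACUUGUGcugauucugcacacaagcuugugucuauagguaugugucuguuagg
Mir99a: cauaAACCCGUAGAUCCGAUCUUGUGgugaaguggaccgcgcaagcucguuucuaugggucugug

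**Figure D1:**
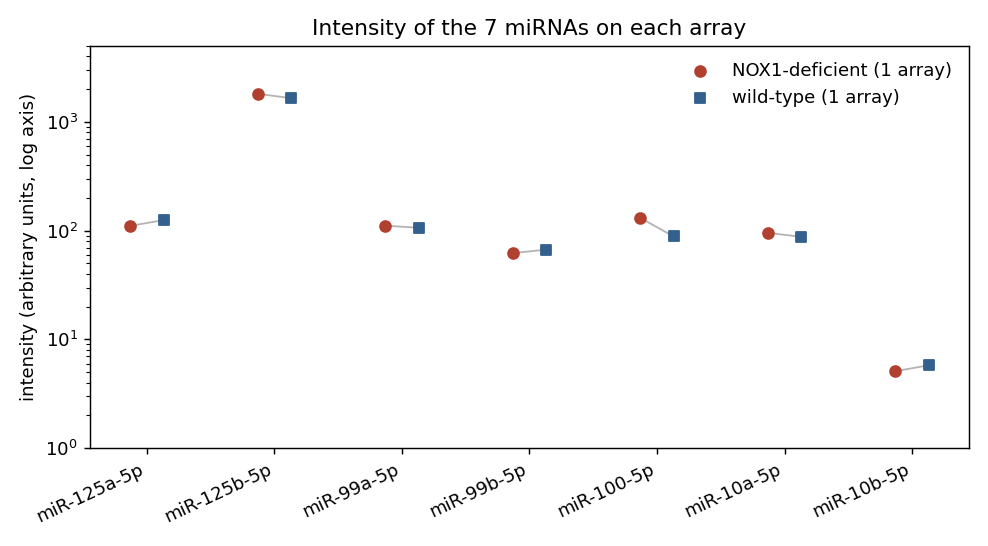
Intensity in arbitrary units (log axis) of each of the 7 miRNAs on the NOX1-deficient array (circles) and on the wild-type array (squares), 1 array per genotype, so there are no error bars. miR-100-5p shows the steepest line, with 131 units in NOX1-deficient and 88.6 units in wild-type cells, and heights of different miRNAs are not comparable.

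Both members of the miR-125 family were among the brightest features, and their differences had opposite signs. miR-125b-5p read 1810 units in NOX1-deficient cells and 1656 units in wild-type cells, a ratio of 1.09 (log2 difference 0.13). In the brightest group this was place 27 of 118 from the highest difference down. miR-125a-5p went the other way and read 111 units in NOX1-deficient cells and 125 units in wild-type cells (log2 difference -0.18, ratio 0.885). It held place 17 of 118 from the lowest difference up. The gap of miR-125b-5p over miR-125a-5p was 0.30 on the log2 scale. Neither difference exceeded the SD across the brightest features, which was 0.18.

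The miR-10 family also had one member on either side of 0. miR-10a-5p read 95.4 units in NOX1-deficient cells and 87.8 units in wild-type cells, a ratio of 1.09 (log2 difference 0.12). miR-10b-5p read 5.10 units in NOX1-deficient cells and 5.78 units in wild-type cells (log2 difference -0.18, ratio 0.882). It was the one member outside the brightest group. It lay in the next one, which covered mean intensities from 4.44 to 18.7 units and had an SD of 0.29. By size, 58 of the 118 features in that group differed by more than miR-10b-5p did. The gap of miR-10a-5p over miR-10b-5p was 0.30. It depended on the processing: quantile normalization gave 0.13, with miR-10a-5p at 0.08 and miR-10b-5p at -0.05, and log2(intensity + 50) gave 0.09, with miR-10b-5p at -0.02.

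**Figure D2:**
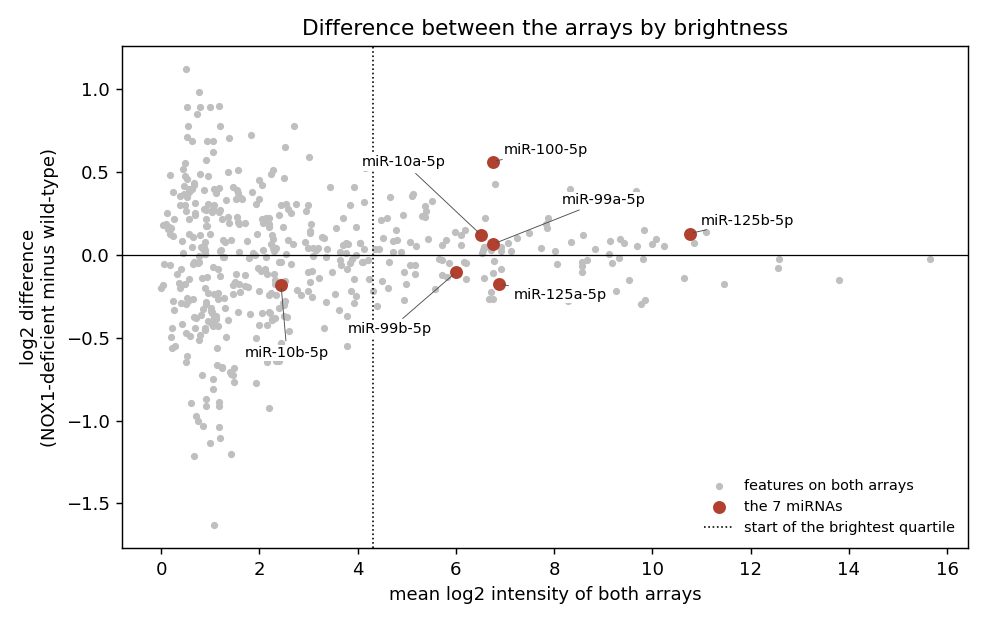
Log2 difference (NOX1-deficient minus wild-type) against mean log2 intensity of both arrays for the 472 features listed on both (grey) and the 7 miRNAs (red). The dotted line marks the start of the brightest 118 features, at 19.9 units. miR-100-5p, at 0.56, lies above all other features right of that line, while the other 6 miRNAs lie between -0.18 and 0.13.

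As a group, the 7 miRNAs had 4 differences above 0 and 3 below, with a median of 0.07 on the log2 scale. Over all 472 features 50.2% were above 0 and 49.6% below, with a median of 0.004. In the brightest group these shares were 56.8% and 43.2%, with a median of 0.03. Without miR-100-5p the other 6 members split into 3 above and 3 below 0, with a median of -0.02 and a range from -0.18 to 0.13. Their SD was 0.15 and that of all 7 was 0.26, against 0.18 across the brightest features, which include miR-100-5p but not miR-10b-5p.

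At a difference of at least 1.2-fold, 1 of the 7 miRNAs (14.3%) was higher in NOX1-deficient cells, and this was miR-100-5p. Of all 472 features 19.1% were that much higher, and of the brightest group, which held 6 of the 7 miRNAs, 9.32% were. At least 1.2-fold lower were 0 of the 7, where 23.1% of all features and 6.78% of the brightest group were. At 1.5-fold, 0 of the 7 were higher and 0 lower, against 4.03% and 7.2% of all features and 0% of the brightest group in either direction. At 2-fold the members' counts were again 0 and 0, against 0.212% of all features higher and 1.69% lower. The number of members past a fold was thus near the background. Among the 7 miRNAs the miR-100-5p difference was the largest by size, and without replicates it has no error.

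Grouped by genomic cluster, the 2 members on chromosome 17 were both lower in NOX1-deficient cells, with log2 differences of -0.10 for miR-99b-5p and -0.18 for miR-125a-5p. They differed from each other by 0.07. Of the brightest group, which held both, 43.2% of features were below 0, and neither difference exceeded that group's SD of 0.18. By size, 60 of its 118 features differed by more than miR-99b-5p and 35 by more than miR-125a-5p. miR-100-5p on chromosome 9 was at 0.56 and miR-99a-5p on chromosome 16 at 0.07, and miR-125b-5p, which both chromosomes encode, was at 0.13. The log2 difference of miR-125b-5p was 0.43 smaller than that of miR-100-5p, its neighbour at the Mir100hg locus. The let-7 members and the opposite arms of these hairpins were not analysed here.

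The sign of each of the 7 differences was the same under the 6 other scalings tried, although miR-99b-5p came as close to 0 as -0.01 and miR-10b-5p as -0.02. miR-100-5p kept first place by size among the brightest 118 features under each of these scalings. Subtracting array medians, dividing by summed intensities or subtracting the brightest group's median difference shifts all differences alike. These scalings therefore could not reorder the increases. The miR-100-5p difference was 0.66 after subtracting the median of each array and 0.59 after dividing by the summed intensities, both beyond 1.5-fold. It was 0.38 as log2(intensity + 50), a scale that shrinks ratios.

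**Figure D3:**
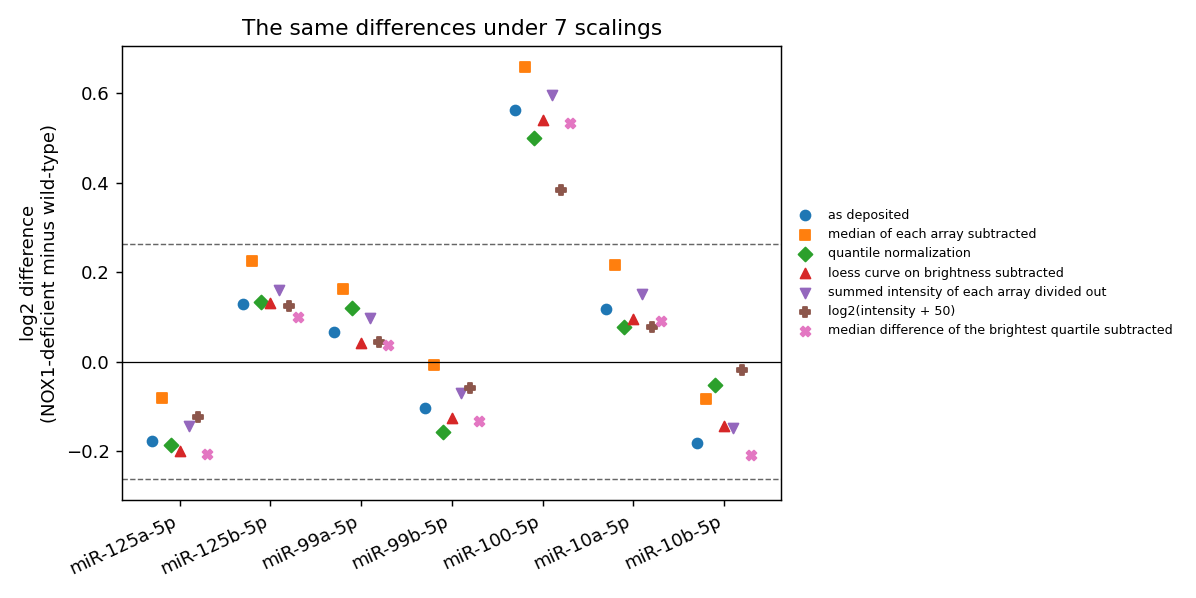
Log2 difference (NOX1-deficient minus wild-type) of each of the 7 miRNAs with the deposited values (circles) and under the 6 other scalings, 1 array per genotype. Dashed lines mark 1.2-fold in either direction. Points of miR-100-5p lie between 0.38 and 0.66, above the upper dashed line, and all points of the other 6 miRNAs lie between the dashed lines.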

How the data were processed

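Total RNA, extracted with the miRNeasy mini kit, was labelled with the dye Hy5 (miRCURY labelling kit), as the labels' protocols state. The deposited table gives 1 intensity per feature and sample, with null where none is listed. That the intensity is linear was read from the values. The sources used here name no scanner, background correction or normalization. The log2 difference was computed from the deposited intensities with no pseudocount, for features listed on both arrays. All 7 members are named. The members, lists and thresholds were chosen with earlier results of these data known. The 10 other lists, of cluster partners, opposite arms and cell type markers among others, are written by miRNA name and were not evaluated, since names were paired with accessions for the 7 members alone. Sequences and loci are from RefSeq tables of build GRCm38.p6. The computation of the log2 differences was tested on simulated data with known folds. Ranks, counts of members, sequences and loci were not tested in this way. Python 3.11.15, numpy 2.4.6, pandas 2.3.3, statsmodels 0.14.6 and matplotlib 3.10.9 were used.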

Additional observations from a re-analysis of the deposited data

How the results depend on the processing

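Other scalings were subtraction of the median of each array, quantile normalization, a loess curve on brightness (span 0.4), division by the summed intensity, log2(intensity + 50) and, chosen after seeing the data, subtraction of the median difference of the brightest quartile. No recomputed value changed the sign of a difference past 1.2-fold. With no replicates, a move was set against the SD of the difference across features of the same brightness group (for a gap or the median, of the brightest, and widened for a gap by the square root of 2), a wide measure that differences near 0 can stay within while shrinking severalfold. The moves past it, or of a count by over 1.5 times, were the miR-100-5p difference, 0.38 with log2(intensity + 50), which shrinks ratios by construction, and the count of members higher, 0 at thresholds of 1.5-fold and of 2-fold. Subtracting array medians moved the median of all features by 0.10. The members' median ran from 0.04 to 0.16, miR-99b-5p from -0.16 to -0.01 and miR-10b-5p from -0.21 to -0.02. The gap of miR-100-5p over miR-99a-5p ran from 0.34 to 0.50, that of miR-125b-5p over miR-125a-5p from 0.25 to 0.33, and that of miR-10a-5p over miR-10b-5p from 0.09 to 0.30. No paired analysis was possible because the genotypes have a single array each, and no replicate could be left out. List counts were not run. Signal over background limits dim features such as miR-10b-5p, to an extent unknown without background values.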
